A study of Mus musculus with 20 samples.

Results

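The angiopoietin-like genes encode secreted relatives of the angiopoietins. Described here are 4 of them, Angptl2, Angptl4, Angptl6 and Angptl7, in tumors of mice treated with cisplatin, with the adenosine receptor antagonist KW6002 (istradefylline), or with both. The 4 genes were listed by mouse symbol, and Angptl7 was chosen by its measured level, which was higher after cisplatin than after vehicle and higher again after cotreatment. Its levels are therefore given as a description with no test, whereas Angptl2, Angptl4 and Angptl6 were tested in every comparison. The count table listed 35226 genes, of which 7 were angiopoietin-like, and all 4 members were among the 16665 genes that passed the filter on low counts.

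LLC1, a mouse Lewis lung carcinoma cell line, was injected under the skin of male C57BL6/J mice aged 8 to 10 weeks. Each of 20 tumors gave 1 library of poly(A) RNA. The 4 groups held 5 tumors each, from mice given vehicle (DMSO, cremophor and saline), KW6002, cisplatin, or cisplatin together with KW6002 (cotreatment), and the labels give no dose. The tumors shared 1 cell line and were grown outside the lung, so that host cells of the flank contributed RNA. No pair of libraries within a group held the same counts, and each was treated as 1 tumor.

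Most angiopoietin-like proteins have a coiled-coil stretch near the amino end and a fibrinogen-like domain at the carboxy end, as angiopoietins do, yet they are not ligands of the Tie2 receptor. Angptl4 and Angptl8 hold back lipoprotein lipase, the enzyme that releases fatty acids from circulating lipoproteins. Angptl4 is a known target of the PPAR receptors, of glucocorticoids and of low oxygen. Angptl2 is known for its part in inflammation and binds integrins and, in mice, the receptor Pirb. Angptl6 is a growth factor best studied in liver, and Angptl7 is a matrix-associated protein of the cornea and of the eye's outflow tissue, where glucocorticoids raise it.

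In the GRCm38 assembly, Angptl7 (ENSMUSG00000028989) lies on the minus strand of chromosome 4, chr4:148495183-148500460, and its 5 exons sum to 2157 bases. The whole gene sits in an intron of Mtor, the gene of the growth-regulating kinase mTOR, which runs on the opposite strand. Angptl2 (ENSMUSG00000004105, chr2:33216069-33247717, plus strand) has the same kind of place inside an intron of Ralgps1. Neither shares an exon base with its enclosing gene. Angptl6 (ENSMUSG00000038742, chr9:20873808-20879727, minus strand) shares 265 exon bases with A230050P20Rik on the opposite strand. The strand option used in counting is not given in the sources used here, so reads of those 265 bases may not have been assigned to either gene. Angptl4 (ENSMUSG00000002289, chr17:33773750-33781830, minus strand) overlapped no other annotated gene. The coding sequences were far from identical. Angptl7 matched Angptl2 at 65.9%, Angptl4 at 61.2% and Angptl6 at 63.7% of its 1011 coding bases after global alignment, and it shared no word of 25 bases with any other member's transcripts.

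Bases upstream of Angptl7 are shown because, of the 4 members, its RNA differed most from vehicle after cisplatin and after cotreatment. Those of Angptl2 and Angptl6 are shown for contrast, and their windows end some way upstream of the gene starts given above. The sequences come from RefSeq (GRCm38.p6), which held such windows for 5 of the 7 angiopoietin-like genes, and stop where annotated transcripts begin. Angptl7 is at chr4:148500463-148500712 on the minus strand, Angptl2 at chr2:33215711-33215950 on the plus strand and Angptl6 at chr9:20879823-20879960 on the minus strand, each written 5′ to 3′. Capitals would mark a match to a searched motif, and none was found:
Angptl7: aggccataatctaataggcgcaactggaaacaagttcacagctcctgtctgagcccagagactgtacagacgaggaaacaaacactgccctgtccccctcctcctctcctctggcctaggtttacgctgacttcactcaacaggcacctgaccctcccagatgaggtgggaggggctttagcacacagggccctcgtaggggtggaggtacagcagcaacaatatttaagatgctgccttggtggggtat
Angptl2: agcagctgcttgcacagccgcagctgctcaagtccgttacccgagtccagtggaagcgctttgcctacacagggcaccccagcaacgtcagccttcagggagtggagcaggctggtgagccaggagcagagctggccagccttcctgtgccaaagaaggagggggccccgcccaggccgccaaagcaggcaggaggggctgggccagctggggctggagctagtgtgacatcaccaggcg
Angptl6: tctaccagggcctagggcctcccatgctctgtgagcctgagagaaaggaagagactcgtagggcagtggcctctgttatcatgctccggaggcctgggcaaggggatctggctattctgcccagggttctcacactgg

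The motifs, searched on both strands, were a TATA box (TATAAA), a single glucocorticoid receptor hexamer (TGTTCT) and a paired core (ACANNNTGT), a PPAR hexamer (AGGTCA), a hypoxia response core (ACGTG) and an AP-1 site (TGANTCA). With 250 bases searched in each of 32851 RefSeq windows, they occurred in 12.4%, 16.1%, 5.84%, 14.0%, 16.6% and 6.75%, in that order. The stretches printed for Angptl2 and Angptl6 are shorter, at 240 and 138 bases. Of the angiopoietin-like genes with a window not shown here, Angptl1 held 1 paired core and Angptl8 held no searched motif. Of 8 genes on a list of glucocorticoid targets that have such a window, 2 held the hexamer and 1 the core in any of their windows. Some of these genes have several windows, as Sgk1 with 6, whereas the shares above are per window. The search covers only these letters in these windows.

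Angptl7 was low in vehicle tumors and was measured at 12.2, 12.8, 11.1, 8.62 and 13.6 CPM (counts scaled to a common library size by TMM) in replicates 1 to 5. In KW6002 tumors it was at 11.7, 19.1, 14.1, 15.1 and 9.44 CPM, with 3 of 5 above the vehicle range. In cisplatin tumors it was at 55.6, 59.2, 75.4, 45.9 and 42.8 CPM, and every value exceeded every value of the vehicle and KW6002 tumors. Cotreated tumors held 98.5, 128, 135, 84.2 and 108 CPM, so that the lowest cotreated tumor lay above the highest cisplatin tumor. These levels rest on 261 to 4648 reads per tumor. The order of the group means was vehicle, KW6002, cisplatin and cotreatment, and only vehicle and KW6002 overlapped. Over all genes tested, groups did not overlap in 10.4% between cisplatin and vehicle, 24.7% between cotreatment and vehicle, 4.83% between cotreatment and cisplatin, 10.7% between cisplatin and KW6002 and 24.9% between cotreatment and KW6002. Nothing is read from the overlap for Angptl7, which was chosen for these levels.

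**Figure D1:**
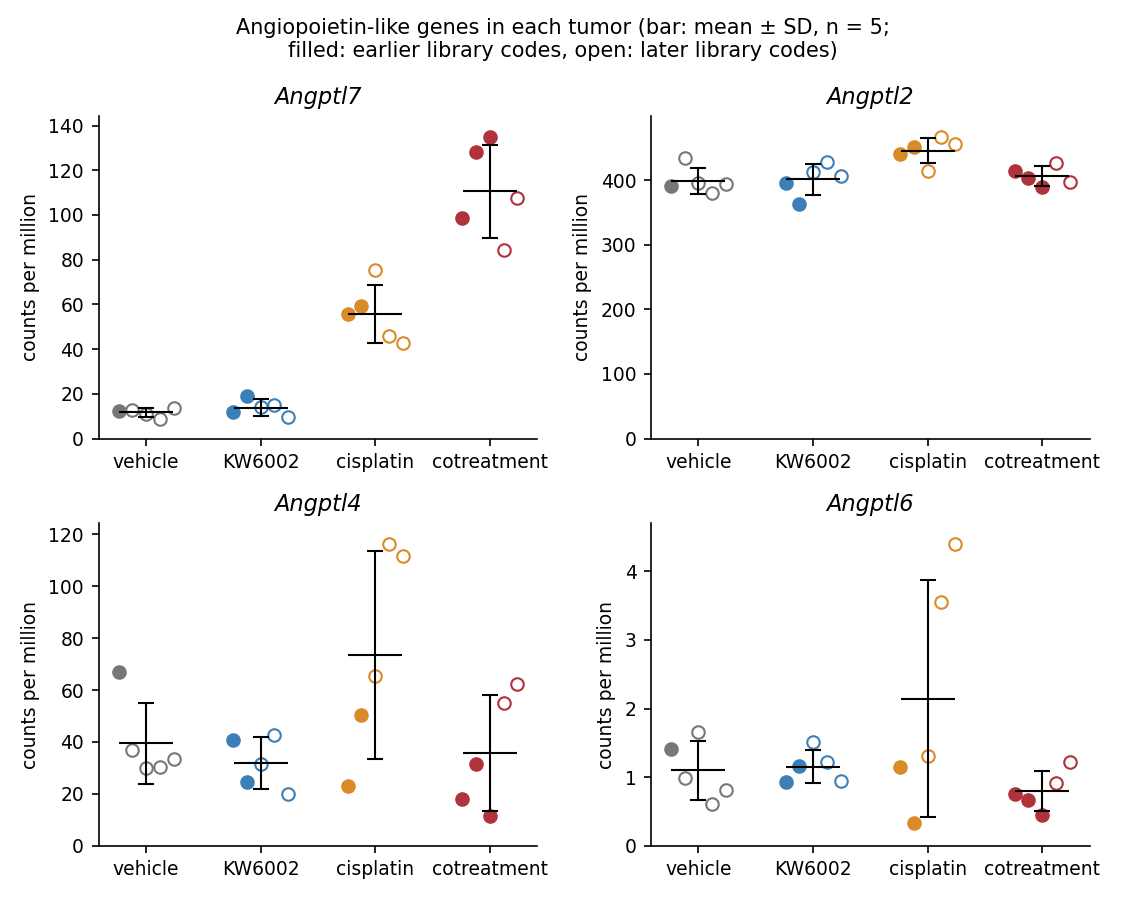
Level of each member in every tumor, in CPM (y axis), by treatment group (x axis). Each point is 1 tumor, filled for the earlier and open for the later library codes, and black bars give the mean ± SD of 5 tumors. Angptl7 spans 8.62 to 135 CPM with the groups apart except vehicle and KW6002, Angptl2 stays between 363 and 466 CPM, and Angptl4 and Angptl6 are most spread in cisplatin tumors.

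The mean of Angptl7 was 11.7 ± 1.94 CPM in vehicle, 13.9 ± 3.67 in KW6002, 55.8 ± 12.9 after cisplatin and 111 ± 20.9 after cotreatment (SD, n = 5). The fitted level was 4.79-fold that of vehicle after cisplatin (log2 fold change 2.26 ± 0.19, SE) and 9.50-fold after cotreatment (3.25 ± 0.20). Cotreated tumors held 1.98-fold the level of cisplatin tumors (0.99 ± 0.18) and 7.96-fold that of KW6002 tumors (2.99 ± 0.20). By log2 fold change, Angptl7 ranked 94th of 16665 genes after cisplatin, 70th after cotreatment and 197th between cotreatment and cisplatin. The comparisons with vehicle share the same vehicle tumors, and the rule that chose the gene used these contrasts.

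After KW6002 alone the log2 fold change of Angptl7 against vehicle was 0.26 ± 0.19 (SE). It is given without a test, since the rule used the same vehicle tumors. It was 0.118 without KW6002 replicate 2, the highest tumor, and 0.161 without vehicle replicate 4, the lowest. Without KW6002 replicate 5, the lowest of its group, it was 0.37. In the comparison of KW6002 with vehicle 0 of 16665 genes were called with edgeR's quasi-likelihood test, that is 0%, as with DESeq2 and with limma voom, and 339 genes had an unadjusted p under 0.05. A gene was called at a Benjamini-Hochberg adjusted p under 0.05 and an absolute log2 fold change of at least 0.32. The change of Angptl7 from cisplatin to cotreatment exceeded that from vehicle to KW6002 by 0.73 on the log2 scale (SE 0.26), also without a test.

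Within 1 set of library codes the order of the Angptl7 means was the same. The rule that chose the gene used these same tumors, so this is a description and no support. Codes fell into an earlier run with 1 vehicle, 2 KW6002, 2 cisplatin and 3 cotreated tumors, and a later run with 4, 3, 3 and 2. Angptl7 averaged 12.2, 15.4, 57.4 and 120 CPM in the earlier and 11.5, 12.9, 54.7 and 95.9 CPM in the later codes, in the order vehicle, KW6002, cisplatin and cotreatment. Cotreatment exceeded cisplatin by a log2 fold change of 1.08 within the earlier and 0.81 in the later codes.

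Angptl2 was abundant and steady. It was measured at 392, 434, 396, 381 and 393 CPM in vehicle tumors and at 396, 363, 413, 428 and 406 CPM in KW6002 tumors. Cisplatin tumors held 440, 451, 414, 466 and 455 CPM, and 4 of these 5 values exceeded every vehicle value. Cotreated tumors held 415, 404, 389, 427 and 398 CPM, inside the vehicle range. The means were 399 ± 20.4, 401 ± 24.2, 445 ± 19.6 and 406 ± 14.8 CPM (SD, n = 5), and all 6 pairs of groups overlapped.

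The cisplatin difference of Angptl2 was small and passed the p limit without reaching the fold limit. It was 0.16 ± 0.05 on the log2 scale, or 1.12-fold (95% interval 0.05 to 0.27, adjusted p = 0.0387, edgeR), so the gene was not called. On omission of 1 tumor the adjusted p ranged from 0.0147 to 0.0984. Against vehicle, cotreated tumors differed by 0.03 ± 0.05 (95% interval -0.08 to 0.13, adjusted p = 0.73). Between cotreatment and cisplatin the log2 fold change was -0.13 ± 0.05 (adjusted p = 0.126). KW6002 alone gave 0.01 ± 0.05 (adjusted p = 1). Each value rests on 11234 to 17750 reads per tumor.

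Angptl4, the inhibitor of lipoprotein lipase, was spread widely among cisplatin-treated tumors. Vehicle tumors held 67.1, 36.8, 30.0, 30.2 and 33.3 CPM, with replicate 1 well above the other 4. KW6002 tumors held 40.6, 24.4, 31.6, 42.6 and 20 CPM. Cisplatin tumors ranged from 23.1 CPM in replicate 1 through 50.3 and 65.5 to 116 and 112 CPM in replicates 4 and 5. Cotreated tumors were at 18.0, 31.4, 11.3, 55.1 and 62.4 CPM, overlapping every other group. The means were 39.5 ± 15.7, 31.8 ± 9.86, 73.4 ± 40.1 and 35.6 ± 22.4 CPM for vehicle, KW6002, cisplatin and cotreatment (SD, n = 5).

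None of the Angptl4 differences passed the test over all 20 tumors. The estimate for cisplatin against vehicle was 0.90 ± 0.47 (95% interval -0.10 to 1.89, adjusted p = 0.207, edgeR), that for cotreatment against vehicle -0.145 ± 0.47 (adjusted p = 0.844), and that for cotreatment against cisplatin -1.04 ± 0.47 (adjusted p = 0.193). The level differed between library codes in both cisplatin arms, and differently in the others. Among cisplatin tumors the 2 earlier codes averaged 36.7 CPM and the 3 later codes 97.8 CPM, and among cotreated tumors the 3 earlier codes averaged 20.2 CPM and the 2 later codes 58.8 CPM. In vehicle the order was the other way, with 67.1 CPM in the single earlier and 32.6 CPM in the later codes, and in KW6002 the means were 32.5 and 31.4 CPM. In the later codes alone the cisplatin tumors (65.5 to 116 CPM) lay above the vehicle tumors (30.0 to 36.8 CPM), and edgeR gave an estimate of 1.60 (adjusted p = 0.00338). In those codes cotreatment differed from vehicle by 0.87 (adjusted p = 0.0647), opposite in sign to the value over all tumors.

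Angptl6 was near the floor of detection, with 13 to 153 reads per tumor. It stood at 1.42, 0.98, 1.67, 0.61 and 0.82 CPM in vehicle tumors and at 0.93, 1.16, 1.52, 1.22 and 0.94 CPM in KW6002 tumors. Cisplatin tumors held 1.15, 0.33, 1.30, 3.56 and 4.39 CPM, and the last 2 were the highest of all 20 tumors. Cotreated tumors held 0.76, 0.66, 0.44, 0.91 and 1.22 CPM. The means were 1.10 ± 0.44, 1.15 ± 0.24, 2.15 ± 1.74 and 0.80 ± 0.29 CPM (SD, n = 5), with all 6 pairs of groups overlapping.

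With edgeR, no comparison of Angptl6 over all tumors was called, and with DESeq2 that of cotreatment with cisplatin was. Cisplatin against vehicle gave 0.97 ± 0.47 (95% interval -0.00298 to 1.94, adjusted p = 0.163, edgeR) and cotreatment against vehicle gave -0.45 ± 0.49 (adjusted p = 0.503). Cotreatment against cisplatin gave -1.42 ± 0.47 (95% interval -2.41 to -0.43, adjusted p = 0.0774), opposite in sign to Angptl7. DESeq2 gave the same estimate of -1.42 with an adjusted p of 0.0238. Leaving out cisplatin replicate 2, the lowest tumor, brought the cisplatin difference from vehicle to 1.25 (adjusted p = 0.0261) and that between cotreatment and cisplatin to -1.70 (adjusted p = 0.0108). Leaving out cisplatin replicate 5, the highest tumor, brought them to 0.53 (adjusted p = 0.463) and -0.97 (adjusted p = 0.243). In the later codes alone cisplatin exceeded vehicle by 1.62 (adjusted p = 0.0149), whereas in the earlier codes the cisplatin mean was 0.74 CPM and the single vehicle tumor was at 1.42 CPM. Cotreatment against cisplatin was -0.19 in the earlier codes (adjusted p = 0.885). With limma voom the cisplatin difference was 0.38 (adjusted p = 0.561).

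Cisplatin replicates 4 and 5 lay at the end of the cisplatin range in all 4 members, though for Angptl2 replicate 5 was close to replicate 2 (455 and 451 CPM). Replicates 4 and 5 held the highest Angptl2, Angptl4 and Angptl6 values of all tumors and the lowest Angptl7 values of the cisplatin group. The same tumors had the highest summed level of 12 hypoxia targets among cisplatin tumors, 2170 and 4180 CPM against 1540, 1320 and 1250 CPM. Their summed fibroblast markers were also the highest of the group, at 15000 and 12800 CPM against 9040 to 10200 CPM, and so were their neutrophil markers, at 44.0 and 70.4 CPM against 15.5 to 27.7 CPM. Glucocorticoid targets summed to 1650 and 2170 CPM in these tumors against 1170 to 1380 CPM, and adipocyte markers to 35.7 and 23.0 CPM against 13.3 to 15.9 CPM. The lung epithelial, epithelial and skin lists were highest in the same tumors, while endothelial, pericyte, macrophage and muscle lists did not set both apart. The part of these differences in the members' values was not tested.

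**Figure D2:**
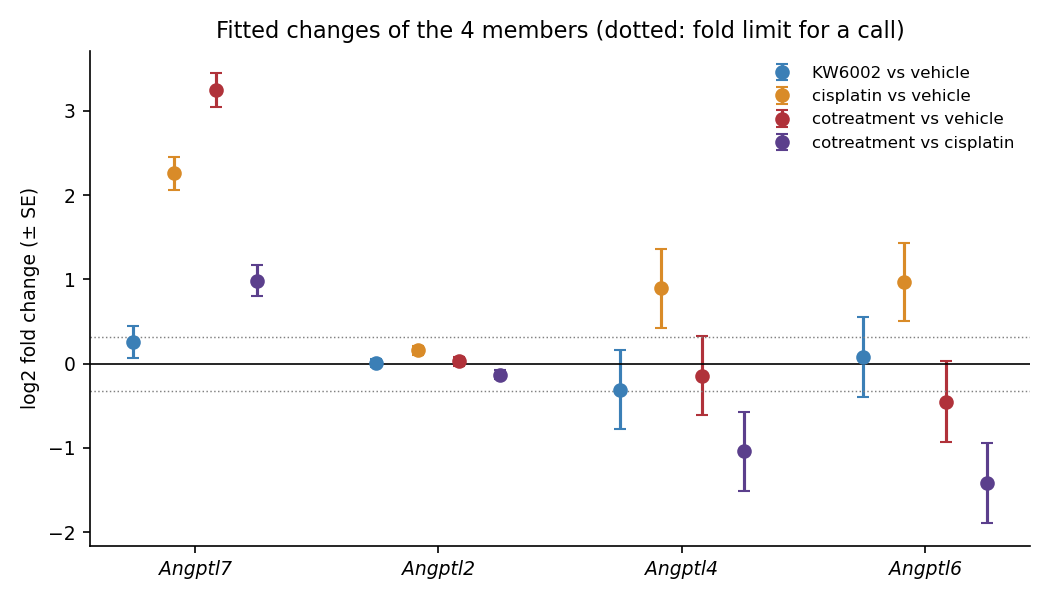
Fitted log2 fold change (y axis) of each member (x axis) in 4 comparisons, with bars of 1 SE and dotted lines at the fold limit of 0.32. Angptl7 rises from 0.26 for KW6002 to 2.26 for cisplatin and 3.25 for cotreatment, Angptl2 stays within 0.16 of 0, and Angptl4 and Angptl6 are positive for cisplatin and negative between cotreatment and cisplatin.

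Of the 3 members tested in every comparison, 0 were called with edgeR over all tumors, whereas DESeq2 called Angptl6 between cotreatment and cisplatin. At an unadjusted p under 0.05, edgeR gave Angptl2 after cisplatin, Angptl2, Angptl4 and Angptl6 between cotreatment and cisplatin, and Angptl6 for the interaction. Of all 16665 genes, 5143, 3883 and 2034 had such a p in these comparisons, in that order. Such values were therefore common among all genes. The background was 10.6% of genes called for cisplatin against vehicle (6.01% higher, 4.57% lower) and 23.5% for cotreatment against vehicle (13.1% higher, 10.4% lower). It was 4.0% for cotreatment against cisplatin (2.29% higher, 1.71% lower) and 23.3% for cotreatment against KW6002. The interaction, the difference between the KW6002 effects measured with and without cisplatin, was called in 0.0660% of genes and in no member tested with edgeR. It was -0.14 ± 0.07 for Angptl2 (adjusted p = 0.45), -0.73 ± 0.66 for Angptl4 (adjusted p = 0.695) and -1.5 ± 0.67 for Angptl6 (adjusted p = 0.372). With DESeq2 and limma voom the interaction of these 3 genes was likewise not called.

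To compare levels between the genes, CPM were divided by the summed exon length in kb. In vehicle tumors Angptl2 stood at 63.5 ± 3.24, Angptl4 at 11.1 ± 4.43, Angptl7 at 5.41 ± 0.90 and Angptl6 at 0.69 ± 0.28 CPM per kb (SD, n = 5). In cotreated tumors the same genes stood at 64.6 ± 2.35, 10.1 ± 6.34, 51.3 ± 9.67 and 0.50 ± 0.18 CPM per kb. Angptl7 exceeded Angptl4 per kb in 0 of 5 vehicle, 1 of 5 KW6002, 3 of 5 cisplatin and 5 of 5 cotreated tumors. In cotreated replicate 3 it reached 62.5 CPM per kb and passed Angptl2 at 61.8. The exons of Angptl2 sum to 6286 bases over all its transcripts. With its longest transcript of 3559 bases as the length, Angptl2 averaged 114 CPM per kb in cotreated tumors, above the highest Angptl7 value.

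**Figure D3:**
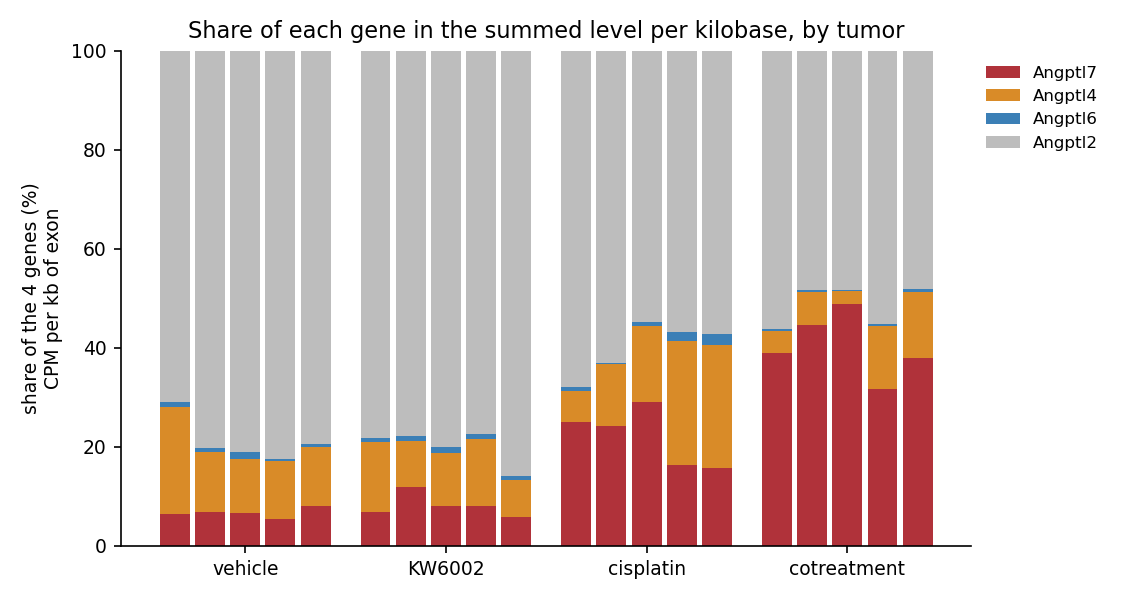
Share (y axis, percent) of each member in the summed CPM per kb of the 4 genes, with 1 stacked bar per tumor and the tumors ordered by group and replicate (x axis). With the summed exon length, the share of Angptl7 averages 6.68% in vehicle, 8.08% in KW6002, 22.1% in cisplatin and 40.4% in cotreated tumors.

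Within the 4 genes, the share of Angptl7 per kb was 6.68 ± 0.93% in vehicle and 8.08 ± 2.35% in KW6002 tumors (SD, n = 5). Cisplatin took it to 22.1 ± 5.84% and cotreatment to 40.4 ± 6.59%. The lowest cotreated share, 31.7%, lay above the highest cisplatin share, 29.1%. Nothing is read from this, since the shares hold the Angptl7 levels for which the gene was chosen. Angptl2 held 78.8 ± 4.55% in vehicle and 51.3 ± 4.09% in cotreated tumors, although its own level per kb was nearly the same in both. These shares use the summed exon length. With its longest transcript as the length, Angptl2 averaged 112 and not 63.5 CPM per kb in vehicle, which lowers the shares of Angptl7.

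Of the other angiopoietin-like genes, Angptl1 passed the filter with 51 to 171 reads per tumor. It averaged 3.40 ± 1.1, 3.18 ± 0.68, 3.20 ± 1.18 and 3.04 ± 1.20 CPM in vehicle, KW6002, cisplatin and cotreated tumors (SD, n = 5). Its log2 fold changes against vehicle were -0.09 ± 0.28 after cisplatin and -0.16 ± 0.28 after cotreatment, with adjusted p of 0.859 and 0.691 (edgeR). Angptl8, a lipase inhibitor, was barely detected and did not pass the filter on low counts. It had 0 to 13 reads per tumor, with no read in 7 of the 20 tumors. It was therefore not tested with edgeR, and nothing is read from its levels.

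Mtor, whose intron holds Angptl7, moved in cotreated tumors only by a fraction of the change in Angptl7. It stood at 97.2 to 111 CPM in vehicle, 92.4 to 132 CPM after cisplatin and 118 to 173 CPM after cotreatment. The log2 fold change was 0.10 ± 0.10 after cisplatin (adjusted p = 0.526, edgeR), 0.53 ± 0.10 after cotreatment (adjusted p = 0.000303) and 0.43 ± 0.10 between cotreatment and cisplatin (adjusted p = 0.0133). The last difference was called in neither the later nor the earlier codes alone. In the later codes almost no gene of any kind was called in that comparison, so the missing call there is not particular to Mtor. Ralgps1, around Angptl2, was not called, at 0.135 ± 0.10 after cisplatin and -0.14 ± 0.10 after cotreatment (adjusted p of 0.374 and 0.304). The 5 genes whose spans hold an angiopoietin-like gene had a median log2 fold change of 0.0044 after cisplatin and -0.14 after cotreatment, beside 0.00041 and -0.016 over all genes tested.

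The genes nearest to Angptl7 across the 20 tumors were Itga10 (an integrin alpha chain that binds collagen), Ppl (periplakin, which links keratin filaments to desmosomes), Pcdh9 (a protocadherin), Sybu (syntabulin) and Sytl1 (a synaptotagmin-like protein). Likeness was the root mean square difference of log2 CPM after subtraction of each gene's vehicle mean, over 12739 genes with a symbol and a mean of at least 50 counts. It was 0.37 for Itga10, 0.43 for Ppl, 0.55 for Pcdh9, 0.56 for Sybu and 0.59 for Sytl1, against a median of 2.01 over all genes. Itga10 averaged 7.89 ± 1.37 CPM in vehicle, 27.1 ± 1.94 after cisplatin and 77.9 ± 26.1 after cotreatment, and Ppl 5.60 ± 1.16, 30.2 ± 8.27 and 50.7 ± 11.9 CPM (SD, n = 5). Sytl1 differed in shape, since its mean was 4.22 CPM after cisplatin and 4.06 CPM after cotreatment. These genes were chosen for the same pattern, and their levels are a description.

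Angptl2 was nearest to Rab7 (0.07), a small GTPase of late endosomes, among genes with little change in any group. Angptl4 was nearest to Meg3 (0.44) and Hmox1 (0.45), the latter encoding heme oxygenase 1, and Angptl6 to Hk3 (0.48) and Fos (0.48). The median over all genes was 0.23, 0.86 and 0.84 for these 3 members.

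Glucocorticoid targets rose in both cisplatin arms. After cisplatin 6 of 9 measured members were called higher, beside 6.01% of all genes, and none lower, with a median log2 fold change of 0.77 beside 0.00041 over all genes. After cotreatment 7 of 9 were called higher, beside 13.1% of all genes, with a median of 1.38 beside -0.016, and 4 of 9 were higher in cotreatment than in cisplatin, beside 2.29% (median 0.79). Zbtb16, a transcription factor, had log2 fold changes of 2.03 ± 0.50 and 3.96 ± 0.50 against vehicle (adjusted p of 0.00946 and 7.49e-06, edgeR). Tsc22d3, which encodes the anti-inflammatory GILZ protein, had 0.88 ± 0.22 and 2.06 ± 0.22 (adjusted p of 0.0104 and 2.45e-06). Fkbp5, a chaperone of steroid receptors, had 0.76 ± 0.15 and 1.81 ± 0.15 (adjusted p of 0.00162 and 1.14e-07).

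Within the cisplatin group, replicates 4 and 5 had the highest sums of glucocorticoid targets and the lowest Angptl7. The cotreated group ran the other way. There replicates 1 and 4 had the lowest sums and the lowest Angptl7, and replicates 2 and 3 the highest of both. In the sum of glucocorticoid targets Mt2, a metallothionein, was at 322 ± 291 CPM (SD, n = 5) in cisplatin tumors, with a median of 149 CPM, whereas Fkbp5 spanned 273 to 385 CPM. Not all the list moved, as Errfi1, which holds back EGF receptor signaling, was at -0.09 ± 0.10 and 0.165 ± 0.10 (adjusted p of 0.549 and 0.194). In the later codes alone 5 of 9 were called after cisplatin and 6 of 9 after cotreatment. Between cotreatment and cisplatin 0 of 9 were then called (edgeR, 3 at an unadjusted p under 0.05), and 3 of 9 in the earlier codes. Almost no gene of any kind was called between cotreatment and cisplatin in the later codes, so the 0 is not particular to this list. The counts over all genes in each code run are given under How the results depend on the processing. The pathway's values were known when this list was drawn up, so its counts are not independent evidence of a direction, and its link with Angptl7 was not tested.

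**Figure D4:**
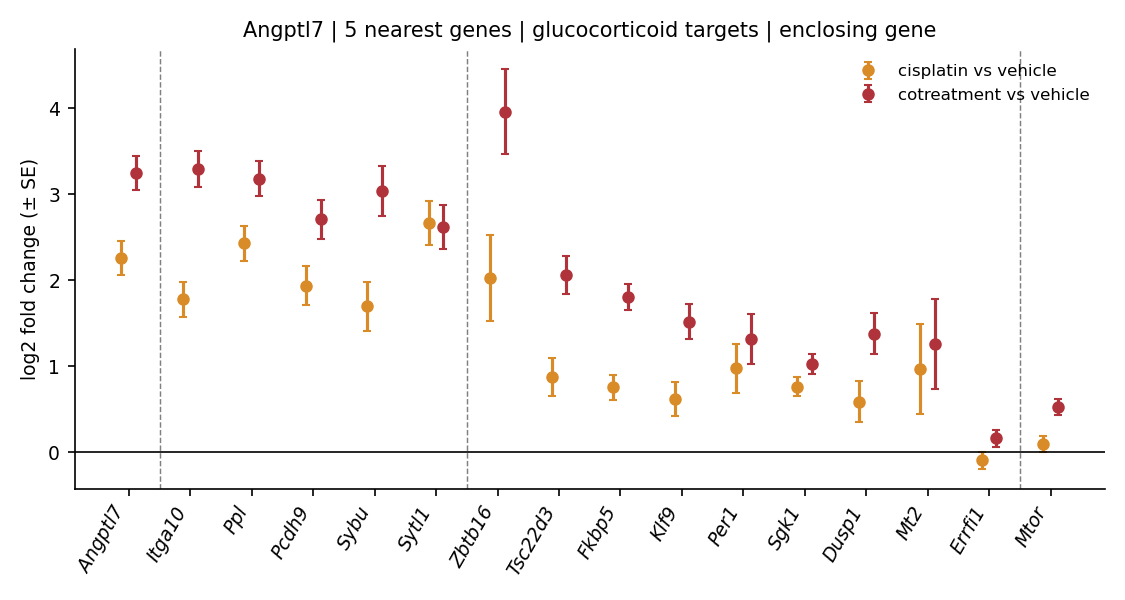
Fitted log2 fold change against vehicle (y axis, bars of 1 SE) after cisplatin and after cotreatment for Angptl7, its 5 nearest genes, 9 glucocorticoid targets and the enclosing gene Mtor (x axis, separated by dashed lines). For Angptl7 and 4 of its 5 nearest genes the cotreatment value lies above the cisplatin value, and Mtor reaches 0.53 after cotreatment.

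Among 5 receptors of the family's proteins, 1 was called lower after cisplatin, and 1 lower and 1 higher after cotreatment, beside 10.6% and 23.5% of all genes called. After cisplatin, DESeq2 and limma voom each called 1 higher and 1 lower, and edgeR in the later codes alone called 1 higher and 3 lower. Itgb3, an integrin beta chain that binds Angptl4 with alpha V, fell by 1.27 ± 0.18 after cisplatin and by 1.08 ± 0.18 after cotreatment (adjusted p of 9.45e-05 and 0.000101, edgeR). Pirb, a receptor of Angptl2, was higher after cotreatment by 0.50 ± 0.13 (adjusted p = 0.00454). Itga5, which pairs with Itgb1 to bind Angptl2, was 0.32 ± 0.07 higher in cotreated than in cisplatin tumors (adjusted p = 0.0138). That difference lay at the fold limit, and 0 of the 5 were called there with the code run as a term, in the later codes alone or with a replicate block (edgeR, 1, 0 and 1 at an unadjusted p under 0.05). DESeq2 and limma voom each called 1 higher there, and edgeR in the earlier codes alone called 2 higher. In the later codes almost no gene of any kind was called in that comparison. The medians of the list against vehicle were -0.25 and -0.21.

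Of the angiopoietins themselves, Angpt1 and Angpt2 moved in opposite directions. Angpt4, which was scarce, was called neither after cisplatin nor after cotreatment (edgeR). Angpt1, the activating ligand of Tie2, rose by 0.80 ± 0.21 after cisplatin and 1.21 ± 0.21 after cotreatment (adjusted p of 0.0122 and 0.000142, edgeR). Angpt2, the context-dependent antagonist, fell by 0.72 ± 0.17 and by 0.45 ± 0.17 (adjusted p of 0.00717 and 0.0449). Tek, the gene of Tie2, fell by 0.79 ± 0.18 and by 0.975 ± 0.18 (adjusted p of 0.00569 and 0.000351), and Tie1 fell by 1.00 ± 0.17 and by 0.79 ± 0.17 (adjusted p of 0.000499 and 0.00101). Of the 6 genes of this list, 1 was called higher and 4 lower after cisplatin, beside 6.01% and 4.57% of all genes. After cotreatment 1 was called higher and 3 lower, beside 13.1% and 10.4%, and with the code run as a term 2 were lower. Endothelial markers fell beside them, 8 of 8 after cisplatin and 6 of 8 after cotreatment, beside 4.57% and 10.4% of all genes called lower. Their sum was 175 to 255 CPM in vehicle, 91.5 to 121 CPM after cisplatin and 95.5 to 142 CPM after cotreatment. Pericyte and smooth muscle markers were lower too, 5 of 8 and 6 of 8 in the same comparisons, with sums of 93.4 to 164, 57.6 to 95.8 and 55.9 to 148 CPM. The 148 CPM was cotreated replicate 4, which had the highest skeletal muscle sum (1050 CPM). The other cotreated tumors were at 55.9 to 74.5 CPM. The part of vascular cell content in these values was not tested. In bulk RNA, fewer cells of a type and less RNA per cell cannot be told apart.

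Around lipoprotein lipase, the enzyme that Angptl4 inhibits, genes were called in both directions. Lpl was at 17.4 ± 16.3 CPM in vehicle and 9.06 ± 2.19 CPM in cisplatin tumors and was not called (-0.94 ± 0.52, adjusted p = 0.23, edgeR). Gpihbp1, which holds the lipase on capillaries, fell by 0.95 ± 0.155 after cisplatin and by 0.44 ± 0.15 after cotreatment (adjusted p of 0.000348 and 0.0282). Lipg, the endothelial lipase, fell by 1.88 ± 0.27 and by 2.34 ± 0.27 (adjusted p of 8.37e-05 and 2.22e-06), whereas Vldlr, a lipoprotein receptor, rose by 1.46 ± 0.36 and 1.81 ± 0.36 (adjusted p of 0.0113 and 0.00101). Endothelial markers fell in the same comparisons (8 of 8 and 6 of 8 called lower, beside 4.57% and 10.4% of all genes). The part of endothelial content in the falls of Gpihbp1 and Lipg was not tested. Of 11 tested genes of this list, 1 was called higher and 2 lower after cisplatin, and 2 each way after cotreatment, beside 10.6% and 23.5% of all genes called. With the code run as a term, 2 were higher and 1 lower after cotreatment. With limma voom 0 were called higher after cisplatin (4 of 11 at an unadjusted p under 0.05 in either direction). The sum of adipocyte markers ranged from 21.6 to 344 CPM in vehicle (median 28.6) and from 13.3 to 35.7 CPM in cisplatin tumors (median 15.9). In cotreated tumors it ranged from 28.4 to 85.1 CPM (median 39.3).

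Targets that share known regulators with Angptl4 were mixed. Among 16 tested PPAR receptors and targets, 3 were called higher after cisplatin and 5 higher and 1 lower after cotreatment, beside 10.6% and 23.5% of all genes called (medians 0.187 and 0.185). Pdk4, a fasting-induced kinase that blocks pyruvate oxidation, rose by 1.73 ± 0.54 and 3.12 ± 0.55 (adjusted p of 0.0373 and 0.000317, edgeR), and Cpt1a, the entry enzyme of fatty acid oxidation, by 0.59 ± 0.11 and 0.42 ± 0.11 (adjusted p of 0.00137 and 0.00634). Ppard, one of the receptors, fell by 0.51 ± 0.10 after cotreatment (adjusted p = 0.0006). Of 12 hypoxia targets, 0 were called after cisplatin with edgeR (2 at an unadjusted p under 0.05, 1 called lower with DESeq2 and 2 with limma voom), beside 10.6% of all genes. After cotreatment 1 was called, beside 23.5% of all genes, namely P4ha1, a collagen-modifying enzyme, which fell by 0.72 ± 0.19 (adjusted p = 0.006).

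Other genes with a fibrinogen-like domain went both ways. Mfap4, a protein of elastic fibers, fell by 1.04 ± 0.16 after cisplatin and by 1.46 ± 0.16 after cotreatment (adjusted p of 0.000231 and 1.76e-06, edgeR). The tenascin gene Tnc fell by 1.19 ± 0.37 and by 0.995 ± 0.365 (adjusted p of 0.0362 and 0.0428), while Tnr rose by 0.90 ± 0.16 and 1.26 ± 0.16 (adjusted p of 0.000792 and 6.63e-06). Of 7 tested genes, 2 were higher and 3 lower in each comparison, beside 10.6% and 23.5% of all genes called. With a replicate block 1 was higher and 2 lower in each, and in the later codes, where 8 were tested, 3 were higher and 1 lower. The shares above are for the fit over all tumors. The later codes called other numbers of all genes, given under How the results depend on the processing. Among small leucine-rich proteoglycans, which like Angptl7 lie in the matrix of the cornea, Kera fell by 1.59 ± 0.26 and by 2.24 ± 0.27 and Lum by 0.63 ± 0.13 and by 0.58 ± 0.13 (adjusted p from 6.42e-06 to 0.00237). Of 9 tested, 2 were lower after cisplatin and 3 after cotreatment, beside 4.57% and 10.4% of all genes called lower. Of 10 TGF-beta targets, 2 were lower after cisplatin and 5 lower and 1 higher after cotreatment, beside 4.57% of all genes lower after cisplatin and 10.4% lower and 13.1% higher after cotreatment, with Tgfb3 falling by 0.84 ± 0.11 and by 0.99 ± 0.11 (adjusted p of 4.54e-05 and 1.73e-06). Of 6 Wnt targets, 0 were called in either comparison with edgeR, DESeq2 or limma voom (1 and 0 at an unadjusted p under 0.05 with edgeR), beside 10.6% and 23.5% of all genes called with edgeR.

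**Figure D5:**
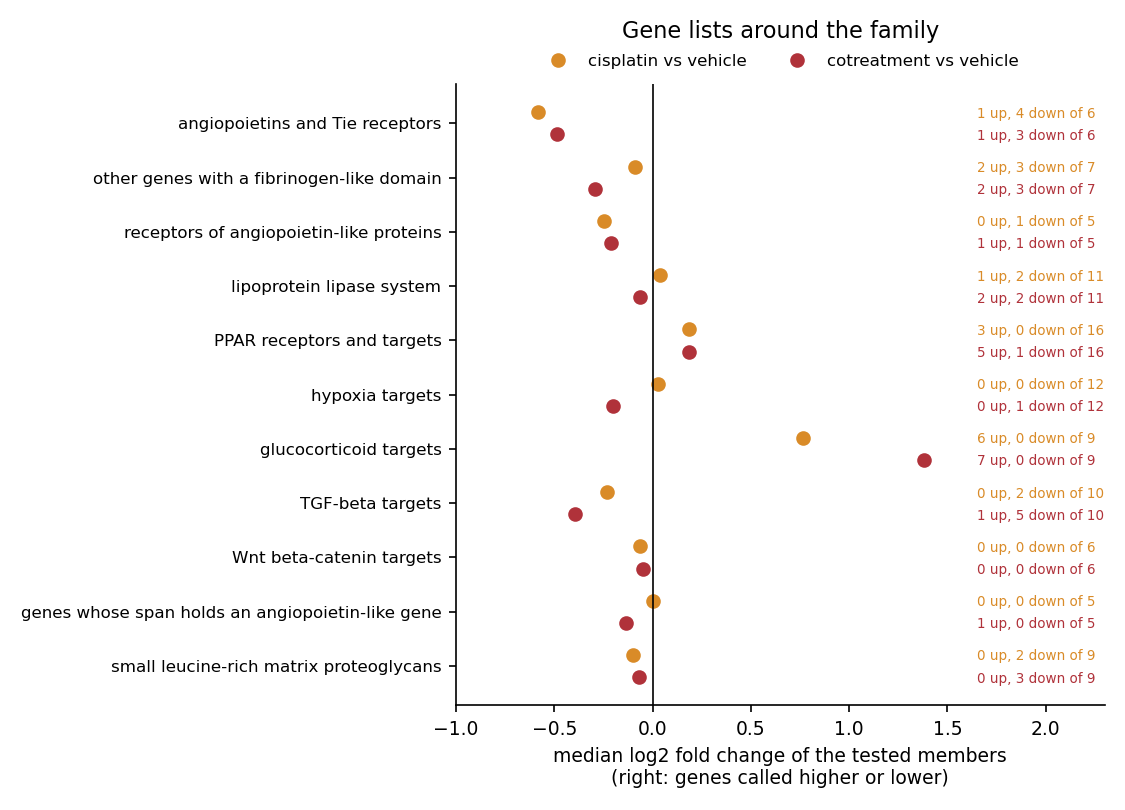
Median log2 fold change (x axis) of the tested genes of 11 pathway lists (y axis), cell type markers not included, after cisplatin and after cotreatment, with the numbers called higher or lower at the right. Glucocorticoid targets lie at 0.77 and 1.38, and the other 10 lists between -0.58 and 0.19.

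Total counts were 28.4 to 41 M reads per tumor. Of the marker lists for cells that a subcutaneous tumor can hold, skeletal muscle varied most. Its sums were 4.7 to 58.3 CPM in vehicle and 4.1 to 236 CPM in KW6002 tumors. They were 3.61 to 248 CPM after cisplatin and 3.59 to 1050 CPM after cotreatment. The highest muscle sum belonged to cotreated replicate 4, which had the lowest Angptl7 of its group. KW6002 replicate 5, with the most muscle of its group, also had the lowest Angptl7. Cisplatin replicate 3, with the most muscle of its group, had the highest Angptl7, and vehicle replicate 3 had neither. A link of muscle with Angptl7 was not tested. Fibroblast markers summed to 10100 to 13300 CPM in vehicle, 9040 to 15000 CPM after cisplatin and 11300 to 13000 CPM after cotreatment, overlapping in all. The lung markers Sftpc and Scgb1a1 had at most 3 reads in any tumor, and 4 of 7 skin markers likewise, while the epithelial keratins Krt8 and Krt18 stood at 117 to 138 and 261 to 285 CPM in vehicle tumors. Epcam, an epithelial adhesion gene, stayed at or under 0.144 CPM in every tumor.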

How the data were processed

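The deposited table held raw counts of reads, as whole numbers, with 1 column for each tumor and Ensembl gene IDs in rows. Per the labels and the study's methods, the authors made stranded poly(A) libraries, sequenced single 50-base reads, aligned them to mm10 with STAR and counted unique alignments with HTSeq 0.6.1p1 in union mode. The Ensembl release is not settled for these tumors. Genes were filtered with filterByExpr (16665 kept, 99.9% of counts), scaled by TMM and fitted with edgeR 4.0.16 in R 4.3.3 as a robust quasi-likelihood model with 4 group means over all 20 tumors. Tests were two-sided with Benjamini-Hochberg adjustment over all genes tested. DESeq2 1.42.0, limma 3.58.1 voom with sample weights, other scalings and filters, a replicate block, library codes as a term, single code runs, only the groups compared and omission of each tumor were the alternatives. The fit was tested on simulated data. Log2 CPM used a prior count of 2. Positions are from GENCODE M21 (GRCm38). The members and lists were chosen with earlier results of these data known. Named genes were the members, listed direct partners, the called genes of each list with the smallest adjusted p (at most 4), and the genes nearest to each member. Reads carried no molecular identifiers, and no count column was left unused. The p-values set a difference between groups against the spread between tumors of the same group. One other gene of the family is not reported here.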

Additional observations from a re-analysis of the deposited data

Results flagged for a closer look

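Among 16 combinations of member and group, 2 held a tumor set apart from the other 4 of its group by a gap that exceeded Dixon's 95% critical share of the group's range, and chance alone gives such a gap in about 1 of 20 groups. Angptl4 in vehicle replicate 1 was at 67.1 CPM, against 30.0 to 36.8 CPM in the other vehicle tumors, a gap of 0.817 of the range. That tumor was the only vehicle tumor with an earlier library code, and its title has another form than the other vehicle titles. Without it the log2 fold change of Angptl4 after cisplatin was 1.19, with an adjusted p of 0.121 (edgeR), and the value was not called. Angptl2 in vehicle replicate 2 was at 434 CPM, against 381 to 396 CPM in the others, a gap of 0.711 of the range. Without it the log2 fold change of Angptl2 after cisplatin was 0.20. The same tumor had the highest sum of adipocyte markers, 344 CPM, and whether this bears on Angptl2 was not tested.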

How the results depend on the processing

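Of 543 values of Angptl2, Angptl4 and Angptl6 under 31 alternative settings, 18 reversed and 5 newly passed. None was called with edgeR over all tumors, so no call could be lost, and Angptl7 carries no test. With the later codes alone, Angptl4 and Angptl6 were called after cisplatin (1.60 and 1.62), cotreatment against vehicle turned to 0.87 for Angptl4 and 0.0837 for Angptl6, and cotreatment against KW6002 to -0.000757 for Angptl2. The calls were then 2743 for cisplatin, 2209 for cotreatment, 1654 against KW6002, 1 between cotreatment and cisplatin and 0 for the interaction. In the earlier codes Angptl4 against KW6002 was -0.67 and 287 genes were called between cotreatment and cisplatin. With limma voom, cotreatment against KW6002 turned to -0.0166 for Angptl2 and -0.35 for Angptl4. Omission of 1 tumor moved small values through 0: KW6002 against vehicle from -0.0151 to 0.0481 for Angptl2 and -0.0793 to 0.28 for Angptl6, cotreatment against vehicle from -0.43 to 0.15 for Angptl4, and cotreatment against KW6002 from -0.0101 to 0.0503 for Angptl2 and -0.13 to 0.40 for Angptl4. It moved Angptl6 from 0.53 to 1.25 after cisplatin and from -1.70 to -0.97 between cotreatment and cisplatin, where DESeq2 also called it (-1.42). Cisplatin calls ranged from 1379 to 2067.

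Calls between cotreatment and cisplatin were 217 with only those groups, 1018 with voom and 289 to 1013 on omission of 1 tumor (396 without cisplatin replicate 3, and 289, 295 and 1013 without cotreatment replicates 2, 3 and 4). The 11 interaction calls became 21 with no filter, 39 with at least 10 counts in every tumor, 17 with the code run as a term, 252 with DESeq2, 291 with voom and 0 to 229 on omission of 1 tumor (229 without cotreatment replicate 4). The cause was not tested.

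The replicate numbers did not pair the tumors. Of 30 same-numbered pairs, 12 had a correlation of deviations over 0.1 (-0.392 to 0.391), and 5 of 20 tumors correlated best with their own number. A replicate block took the interaction calls from 11 to 0, gave 0.99 for Angptl7 between cotreatment and cisplatin, and left the adjusted p of Angptl2 after cisplatin at 0.0635. Earlier codes hold 1 vehicle tumor, so contrasts with vehicle and the interaction were not fitted there. Angptl6 had the fewest reads of the members (13 to 153 per tumor).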
